A study of Mus musculus with 3 samples.

Results

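The 10 genes described here encode proteins that dock, prime and fuse secretory vesicles: Rab3a, Stx1a, Sytl4, Pclo, Snap25, Vamp2, Unc13a, Syt4, Syt7 and Syt13. Acetylation of histone H3 at lysine 27 (H3K27ac), which marks promoters and enhancers in use, had been mapped by ChIP-seq in MIN6, an insulin-secreting mouse insulinoma line that serves as a beta cell model. The groups were an Arid1a homozygous knockout clone, an Arid1a heterozygous knockout clone and a wild-type clone, with 1 library each. Per the labels' protocols, the cells carried a Cas9 lentivirus and then received a guide RNA against Arid1a, which encodes a subunit of SWI/SNF chromatin remodellers, and single clones were assigned to the genotypes by PCR and Western blotting. Each genotype is thus a single clone without replicates, and no difference below carries a test or a p-value. Peaks in the wild-type list are named with the tag GAL4, a term not explained in the sources used here, so the identity of that clone rests on the labels.

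Peaks that touched or overlapped between the libraries were joined into regions. A region was given to a gene when it overlapped the gene or lay within 50 kb of it with no other protein-coding gene nearer, on mm10. This gave 55 regions for the 10 genes, of 52938 regions in the series and 45951 near any of 21887 protein-coding genes. The regions held 37 of 34298 peaks in the homozygous library, 39 of 31365 in the heterozygous library and 43 of 41490 in the wild-type library. All 12 beta cell markers examined had regions in each of the 3 libraries, with 41 regions in the homozygous, 37 in the heterozygous and 47 in the wild-type library. Of the 21 markers of alpha, delta, acinar, duct, fibroblast and immune cells, 9 had no region in any library, and all 21 together had 7 regions in the homozygous, 13 in the heterozygous and 13 in the wild-type library. Arid1a itself had 6, 4 and 5 regions in the homozygous, heterozygous and wild-type libraries, which does not check the knockout.

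In regulated exocytosis a vesicle docks at the plasma membrane through Rab proteins and their effectors, is primed by Munc13 proteins, and fuses when a vesicle SNARE and plasma membrane SNAREs zip together after calcium binds a synaptotagmin. Beta cells release insulin granules with this machinery, which they share with neurons. H3K27ac commonly lies on the nucleosomes that flank a start site of transcription, and also at enhancers inside and between genes.

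Start sites could be placed for 5 of the 10 genes from RefSeq promoter windows on GRCm38.p6, the assembly of mm10, each running from 250 bases before a start to 50 bases after it. The windows of 4 genes are printed 5′ to 3′ along the gene because their peak cover differed between the libraries, and one of Rab3a because it did not. Capitals mark bases inside a wild-type peak and outside every homozygous peak.
Stx1a, chr5:135023232-135023531, plus strand: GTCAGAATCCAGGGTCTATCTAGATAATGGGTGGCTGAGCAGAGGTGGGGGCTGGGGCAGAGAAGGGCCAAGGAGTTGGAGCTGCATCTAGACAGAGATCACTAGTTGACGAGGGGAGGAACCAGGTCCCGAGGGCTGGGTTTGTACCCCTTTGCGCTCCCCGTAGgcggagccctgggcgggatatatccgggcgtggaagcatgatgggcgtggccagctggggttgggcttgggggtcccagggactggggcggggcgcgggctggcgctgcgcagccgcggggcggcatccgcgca
Unc13a, chr8:71671708-71672007, minus strand: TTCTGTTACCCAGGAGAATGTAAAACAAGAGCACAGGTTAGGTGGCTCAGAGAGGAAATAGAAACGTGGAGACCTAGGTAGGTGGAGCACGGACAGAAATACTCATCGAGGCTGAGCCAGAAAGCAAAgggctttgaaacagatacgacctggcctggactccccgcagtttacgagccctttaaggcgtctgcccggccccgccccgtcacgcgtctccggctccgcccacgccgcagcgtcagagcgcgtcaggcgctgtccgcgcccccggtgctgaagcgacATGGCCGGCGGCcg
Pclo, chr5:14514668-14514967, plus strand: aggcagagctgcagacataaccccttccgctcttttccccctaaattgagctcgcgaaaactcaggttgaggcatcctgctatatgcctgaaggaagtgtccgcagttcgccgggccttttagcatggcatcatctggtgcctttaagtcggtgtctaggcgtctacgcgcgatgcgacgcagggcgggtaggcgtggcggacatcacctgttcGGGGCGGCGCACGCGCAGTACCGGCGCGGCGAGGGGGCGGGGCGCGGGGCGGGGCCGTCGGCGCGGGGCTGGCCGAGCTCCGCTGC
Sytl4, chrX:133981763-133982062, minus strand: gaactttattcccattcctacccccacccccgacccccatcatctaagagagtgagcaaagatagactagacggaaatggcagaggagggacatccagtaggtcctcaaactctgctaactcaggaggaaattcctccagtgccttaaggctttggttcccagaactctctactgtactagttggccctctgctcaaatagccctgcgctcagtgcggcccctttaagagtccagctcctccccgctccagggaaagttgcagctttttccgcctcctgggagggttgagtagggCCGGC
Rab3a, chr8:70754852-70755151, plus strand: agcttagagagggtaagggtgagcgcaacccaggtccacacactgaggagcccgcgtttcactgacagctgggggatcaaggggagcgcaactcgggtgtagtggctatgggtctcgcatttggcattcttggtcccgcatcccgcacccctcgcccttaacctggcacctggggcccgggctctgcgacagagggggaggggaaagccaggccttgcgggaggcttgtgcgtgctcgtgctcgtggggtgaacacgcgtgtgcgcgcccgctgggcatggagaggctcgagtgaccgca
In the Stx1a window 166 of 300 bases lay in a wild-type peak and 0 in a peak of either knockout library. In the Unc13a window the homozygous, heterozygous and wild-type peaks covered 2, 0 and 142 bases. The Pclo window was covered over 214 bases in the homozygous library and over all 300 bases in both others, and the Sytl4 window over 0, 0 and 5 bases. The Rab3a window printed here lay wholly inside a peak in each library.

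Known motifs were searched on both strands of the 6 windows of these genes, which include a second window of Rab3a. The GC box GGGCGG was found in 4 of 6 windows and in 35.6% of the 32817 windows of the table. It occurred 4 times in the Pclo window and 3 times in that of Stx1a, at 74 bases before and 1 and 34 bases after the start. The CRE, TGACGTCA, and the AP-1 motif, TGANTCA, were in none of the 6 windows and in 1.79% and 7.81% of all windows. Parts of the site of REST, a repressor of neuronal genes, were found only in the Unc13a window among these 6. There TTCAGCACC and GGACAGC lay on the opposite strand, with their first matched bases 22 and 7 bases after the start, against 0.372% and 6.56% of all windows. No 2 of these matches overlapped in the Unc13a window. A match describes letters and not a bound site.

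**Figure D1:**
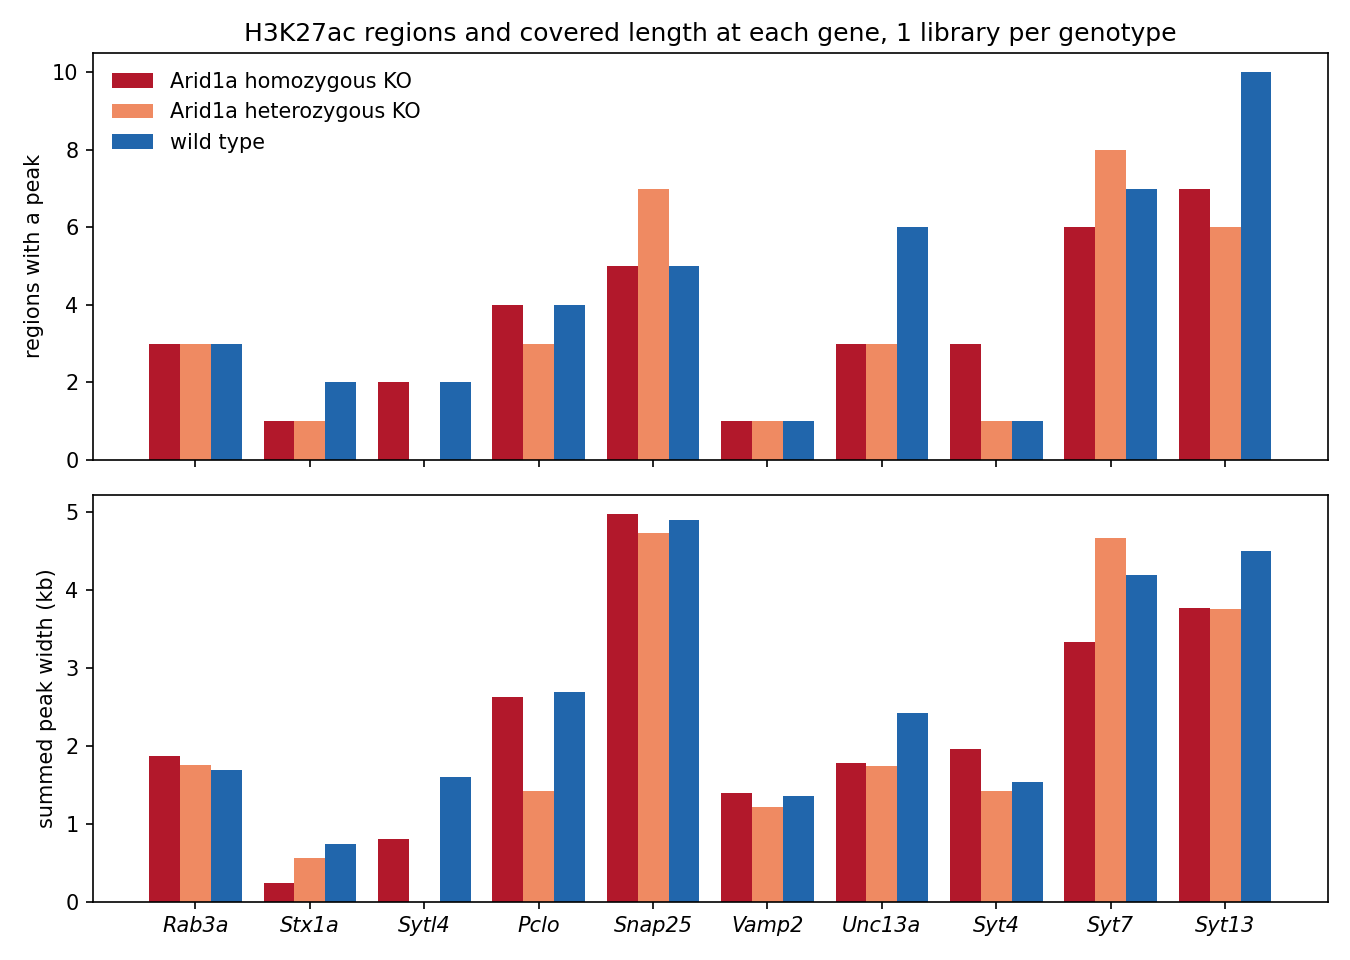
Number of H3K27ac regions (upper panel) and summed peak width in kb (lower panel) at each of the 10 genes, with bars for the homozygous, heterozygous and wild-type library from left to right. Sytl4 has no bar in the heterozygous library, and Syt13 and Unc13a have their highest bars in wild type.

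Over the 10 genes 35 regions had a peak in the homozygous library, 33 in the heterozygous and 41 in the wild-type library, covering 22.8, 21.3 and 25.7 kb. A peak in all 3 libraries was found in 23 of 55 regions (41.8%, 95% Wilson interval 29.7 to 55.0%), against 39.7% of all regions near a gene. Of the 10 genes, 9 had at least 1 region in every library, as did 11816 of all 21887 genes (54.0%), and the exception was Sytl4. Within 1 kb of a gene end 11 of 14 regions were present in all 3 libraries, and farther away 12 of 41 were. Over all regions these shares were 73.9% and 22.3%. At these genes, as over all, regions at gene ends mostly had a called peak in all 3 libraries and those elsewhere mostly did not. Intervals cover counting error only. They treat regions as independent, though many belong to the same gene, so they may be too narrow.

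Summit pile-ups, in reads, and the local background were recovered from the authors' fold enrichment and −log10 p of each peak. The pile-ups of the exocytosis peaks had medians of 81, 70 and 65 reads in the homozygous, heterozygous and wild-type library, against 54, 47 and 49 reads over all peaks. Their local backgrounds were also high, with medians of 19.6, 16.7 and 15.8 reads per position against 7.12, 6.72 and 7.26 over all peaks. The authors' fold enrichment, which divides by that background, had medians of 4.91, 3.83 and 4.11 at these genes and of 6.31, 5.81 and 5.67 over each whole list. By these pooled medians peaks here were tall in reads but modest in fold, which did not hold at every gene. A wild-type Stx1a peak held 27 reads at a fold of 7.41. The Vamp2 peaks had folds of 8.92 in the homozygous, 9.17 in the heterozygous and 8.50 in the wild-type library. Whether the background came from a control library or from the ChIP reads around the peak was not given in the sources used here.

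Rab3a, a small GTPase of secretory vesicles that acts in docking, had the same 3 regions in all libraries. The gene lies on chromosome 8 at 70754703 to 70758608 (mm10). One region, at 70754705 to 70755258, began 2 bp inside the gene end and covered a second start at 70755102. Its summit held 174 reads in the homozygous, 84 in the heterozygous and 129 in the wild-type library, at percentiles 92.3, 75.5 and 89.3 of −log10 q within each list. The other two lay before the gene, 275 bp and 1.44 kb from it. The nearer one was 1024 bp wide in the homozygous library as 1 peak, 857 bp in the heterozygous as 1 peak and 869 bp in wild type as 2 peaks with a gap of 106 bp. No region of Rab3a was gained or lost among all deposited peaks, and at −log10 q of at least 10 it had a net of -1, heterozygous against wild type, and of 1, homozygous against heterozygous.

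Sytl4, or granuphilin, a Rab effector that docks insulin granules at the membrane, was the only gene of the 10 with no peak in the heterozygous library. It lies on chromosome X at 133936385 to 133981821, with its start at 133981812 on the minus strand. Wild type had a peak of 939 bp at 133980829 to 133981767, ending 45 bp from the start, with 36 reads at the summit and a fold of 5.01, and neither knockout library had a peak there. A region inside the gene, 17.5 kb from its lower end at 133953869 to 133954559, held a homozygous peak of 490 bp with 36 reads and a wild-type peak of 669 bp with 45 reads. A homozygous peak of 318 bp with 25 reads lay beside it at 133954767 to 133955084. The homozygous library thus had called peaks inside Sytl4 without one at its start, and the heterozygous library had neither. The wild-type peak at the start stood at percentile 37.4 of its list, below the middle.

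Pclo, a large scaffold of the presynaptic active zone that also takes part in cAMP-dependent insulin release, had 4 regions in the homozygous, 3 in the heterozygous and 4 in the wild-type library. The gene spans 349 kb on chromosome 5, from 14514906 to 14863465. The region over its start, at 14514551 to 14516010, was shared by all. It held 2 peaks in the homozygous library, divided by 92 bp at 14514882 to 14514973, just where the start at 14514918 lies, and a single peak of 1015 bp in the heterozygous and of 1392 bp in the wild-type library. The summits held 102 reads in the higher homozygous peak, 53 in the heterozygous and 68 in the wild-type one.

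The rest of the Pclo peaks lay inside the gene and did not coincide between the homozygous and the other libraries. Between 14.4 and 16.3 kb from the lower end of the gene the homozygous library had peaks at 14530777 to 14530976 and at 14531255 to 14531696, with 28 and 32 reads, whereas wild type had peaks at 14529309 to 14529598 and 14530047 to 14530339, with 22 and 26. The heterozygous library shared the second wild-type region with a peak of 200 bp and 22 reads. A homozygous peak of 758 bp at 14543392 to 14544149 had no counterpart, and a region that began 110473 bp inside the gene had a heterozygous peak of 203 bp and a wild-type peak of 716 bp. None of these peaks stood above percentile 33.9 of its list.

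Stx1a and Snap25 encode the SNAREs of the plasma membrane, and Vamp2 that of the vesicle. Stx1a, on chromosome 5 at 135023482 to 135051100, had 1 region in each knockout library and 2 in wild type. The region lost in both knockouts was the 321 bp peak before the start, at 135023077 to 135023397, with 27 reads and a fold of 7.41 in wild type. The region after the start, at 135023568 to 135024175, had 238 bp in the homozygous, 560 bp in the heterozygous and 420 bp in the wild-type library. Its summits held 19, 25 and 26 reads over backgrounds of 1.73, 2.28 and 2.74 reads, so that this gene had low pile-ups in all libraries.

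Vamp2, on chromosome 11 at 69088528 to 69092381, had the highest ranked peaks of the 10 genes in all 3 libraries. A single region at 69088085 to 69089486 covered its lower end. It was 1402 bp wide with 200 reads in the homozygous, 1219 bp with 145 reads in the heterozygous and 1361 bp with 215 reads in the wild-type library. These peaks stood at percentiles 96.3, 96.5 and 98.6 of −log10 q in their lists. There were 24 other regions within 50 kb of Vamp2 that lay nearer to another gene and were not counted for it.

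Snap25, on chromosome 2 at 136713439 to 136782428, had 5 regions in the homozygous, 7 in the heterozygous and 5 in the wild-type library, of which 4 were common to all. Regions at 136712218 to 136713298 and at 136713485 to 136714513 flanked its lower end. The first was nearly the same width in each library, with 1040, 1040 and 1022 bp, while the second had 1029 bp in the homozygous, 549 bp in the heterozygous and 987 bp in the wild-type library. Summits in the second held 113, 84 and 113 reads.

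A second pair of constant regions lay 33.5 and 42.5 kb from Snap25, outside the gene. The nearer one, at 136678085 to 136679919, was the widest of the 55, with 1730 bp in the homozygous, 1633 bp over 2 peaks in the heterozygous and 1807 bp in the wild-type library, and summits of up to 143, 122 and 140 reads. The farther one, at 136669922 to 136670891, had 721 bp in the homozygous, 704 bp over 2 peaks in the heterozygous and 741 bp in the wild-type library. Its summits differed more than its widths, with up to 27, 27 and 73 reads over backgrounds of 2.54, 5.04 and 9.3 reads per position. They stood at percentiles of up to 39.0, 20.5 and 72.5 of their lists. Beside this farther region, one with no homozygous peak had 230 bp in the heterozygous and 343 bp in the wild-type library. Peaks in 1 library alone were heterozygous at 136680457 and 136742440, with 56 and 28 reads, and homozygous at 136753872, with 30. A distance of 42.5 kb was the largest among the 55 regions.

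Unc13a, or Munc13-1, which primes docked vesicles for fusion, had 3 regions in each knockout library and 6 in wild type. It lies on chromosome 8 at 71624125 to 71671774, with its start at 71671757 on the minus strand. The near edges of the 3 constant regions, those that begin at 71670893, 71670245 and 71668403 in coordinates, lay 36, 1037 and 2841 bp after the start. The one nearest the start was 817, 778 and 804 bp wide, with 214, 142 and 140 reads at the summit in the homozygous, heterozygous and wild-type library. The local backgrounds there were 39.4, 30.3 and 24.3 reads per position, and the folds 5.32, 4.56 and 5.57, highest in wild type. The next was 476, 456 and 356 bp wide, and the third 486, 514 and 398 bp. Both of these were wider in each knockout library than in wild type. Their backgrounds were higher there too, at 35.8, 28.4 and 21.8 in the first of them and 35.6, 28.6 and 21.5 in the second.

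The 3 wild-type regions of Unc13a that neither knockout library had were of unlike kinds. The peak at 71671880 to 71672174, before the start, held 86 reads over a background of 25.5 reads per position and stood at percentile 48.7 of its list. The other two, at 71628944 and 71629516 near the far end of the gene, held 19 and 17 reads over backgrounds of 2.72 and 2.66, and stood at percentiles 17.4 and 9.31. At Unc13a, as at Stx1a, called peaks lay on both sides of the start in wild type and on the side of the transcribed gene alone in both knockout libraries. The wild-type peak before the Unc13a start had a fold of 3.28. Just after that start the background was 39.4 in the homozygous, 30.3 in the heterozygous and 24.3 in the wild-type library. Where a loss needed no peak within 1 kb, the net against wild type in each knockout was 0 at Stx1a and -2 at Unc13a.

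**Figure D2:**
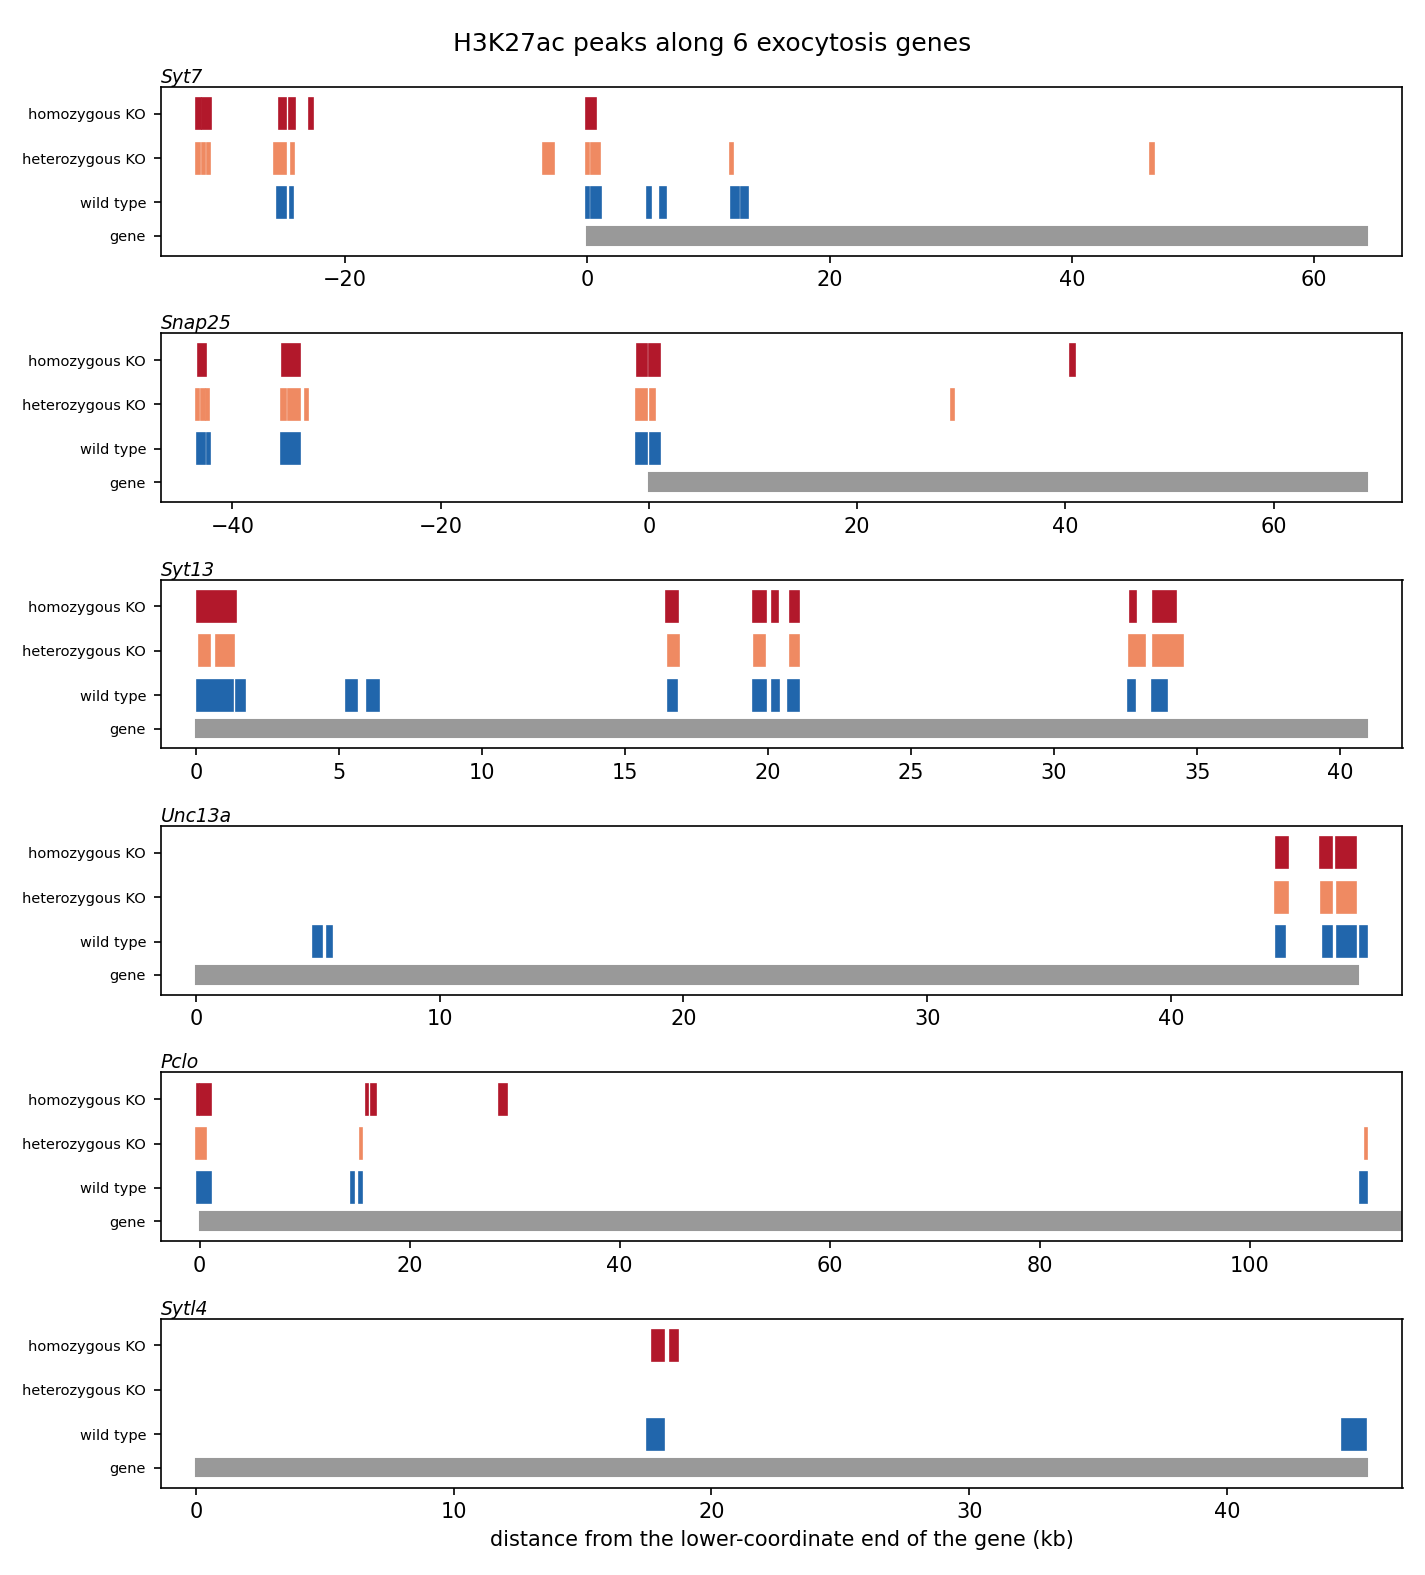
Peaks along 6 of the genes, drawn to scale as boxes with a thin outline, against the distance in kb from the lower-coordinate end of the gene (grey bar; that of Pclo runs on beyond the panel). Rows run from the homozygous over the heterozygous to the wild-type library; the Syt7 peaks farthest to the left are in both knockouts and not in wild type, and the row of the heterozygous library is empty at Sytl4.

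Syt7, a calcium sensor of insulin granule release, had the most regions, 12, with 6 in the homozygous, 8 in the heterozygous and 7 in the wild-type library. The gene lies on chromosome 19 at 10388802 to 10453181. A constant region at 10388702 to 10389924 covered its lower end, with 832 bp in the homozygous, 965 bp in the heterozygous and 1064 bp in the wild-type library. Its highest summits held 61, 87 and 65 reads, over backgrounds of 5.56, 18.4 and 15.0 reads per position.

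Outside Syt7, 2 regions were present in both knockout libraries and absent from wild type, the only ones of that pattern among the 55. The one at 10356987 to 10357799, 31.0 kb from the gene, was 813 bp wide with 65 reads in the homozygous library, at percentile 62.3 of its list, and 564 bp wide over 2 peaks with up to 52 reads in the heterozygous library. The one at 10356505 to 10356897 was 345 and 376 bp wide, with 33 and 48 reads. The pattern made up 3.64% of the 55 regions and 3.03% of all regions near a gene. Between these and the gene, constant regions lay at 10362921 to 10363963, with 577 bp in the homozygous, 997 bp in the heterozygous and 778 bp in the wild-type library, and at 10364175 to 10364678, with 504, 303 and 280 bp.

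Inside Syt7, wild type had 4 regions that began between 4.93 and 12.7 kb from the lower end. Those at 10393735, 10394803 and 10401484 were in wild type alone, with 65, 57 and 47 reads at the summit and percentiles of 43.9, 46.4 and 37.7. The remaining one, at 10400617 to 10401324, had a heterozygous peak of 252 bp with 31 reads and a wild-type peak of 653 bp with 49 reads. The homozygous library had no peak in Syt7 beyond the region over its lower end. In the heterozygous library a further peak of 332 bp lay inside the gene at 10435210, and one of 876 bp lay 2.75 kb before it at 10385175. A homozygous peak of 259 bp lay outside the gene at 10365886. In the 2 knockouts the count of Syt7 regions moved opposite ways against wild type, by a net of -1 in the homozygous and 1 in the heterozygous library, a difference without a test. The heterozygous net was -2 with only peaks at −log10 q of at least 10 or only regions that overlap the gene, and -1 within 10 kb.

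Syt13, a synaptotagmin that lacks calcium binding and is expressed in endocrine cells of the pancreas, had 7 regions in the homozygous, 6 in the heterozygous and 10 in the wild-type library, all inside the gene. It lies on chromosome 2 at 92915101 to 92956051. No region was present in a knockout and absent from wild type. The region at its lower end, at 92915142 to 92916495, had 1345 bp as 1 peak in the homozygous, 1025 bp as 2 peaks in the heterozygous and 1271 bp as 1 peak in the wild-type library. Its summits held up to 119, 81 and 158 reads. Of the regions lost, 3 were absent from both knockouts, at 92916507, 92920340 and 92921080, where the wild-type summits held 83, 79 and 79 reads over backgrounds of 36.9, 28.2 and 22.3 reads per position. They were 298, 399 and 413 bp wide and lay 1.41, 5.24 and 5.98 kb from the lower end. The one at 92916507 began just past the homozygous peak at the lower end, which ran to 92916495. Its wild-type peak had a fold of 2.21 and stood at percentile 16.6 of its list. Another lost region, at 92935245, was absent from the heterozygous library alone.

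The far part of Syt13 held the regions with the highest log2 width ratios of the heterozygous over the wild-type library among the 27 shared ones, 1.26 and 0.93. The region at 92947682 to 92948277 was 205 bp wide in the homozygous, 574 bp in the heterozygous and 240 bp in the wild-type library, with 60, 80 and 46 reads. The region beside it, at 92948507 to 92949596, was 796, 1029 and 540 bp wide, with 100, 96 and 59 reads. The 3 constant regions in the middle of the gene, at 92931525, 92934587 and 92935810, were 304 to 443 bp wide in every library.

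Syt4, a synaptotagmin that accumulates as beta cells mature and that has been tied to lower calcium sensitivity of secretion, had 3 regions in the homozygous library and 1 in each of the others. It lies on chromosome 18 at 31437808 to 31447415. The constant region covered its upper end with 1465 bp in the homozygous, 1420 bp in the heterozygous and 1538 bp in the wild-type library. It was called as 2 peaks in both knockouts, with gaps of 91 and 106 bp, and as 1 peak in wild type. Highest summits held 184, 133 and 138 reads, at percentiles 91.2, 93.2 and 84.6. The 2 regions found in the homozygous library alone lay 10.1 and 10.6 kb outside the gene, were 275 and 224 bp wide and held 20 and 17 reads.

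The homozygous library against wild type had 10 gained of 35 regions (28.6%, interval 16.3 to 45.1%) at these genes, against 24.1% of all regions near a gene, where gained means a peak in the first library and none in the second. It had lost 16 of the 41 wild-type regions (39.0%, 25.7 to 54.3%), against 36.9% of all. Syt4 alone had more gained than lost regions, Stx1a, Unc13a, Syt7 and Syt13 had more lost than gained, and the other 5 genes had as many of each. Gains were at Syt7 and Pclo with 3 each, Syt4 with 2, and Sytl4 and Snap25 with 1 each. Both shares were near those of the genome. With lists of equal length 11 of 34 regions were gained (all regions: 27.2%) and 11 of 34 lost (all regions: 28.0%). The net of Syt13 was then 0, against -3 among all peaks, and that of Unc13a -1, also against -3. At −log10 q of at least 10, 6 of 29 regions were gained (all regions: 21.7%). Within 10 kb of a gene 5 of 26 were gained (all regions: 22.2%), and over regions that overlap it 5 of 23 (all regions: 21.9%). The net of Syt4 was 0 under both of these distance rules. The net of Stx1a was 0 where a region counted as lost only with no peak within 1 kb. Depth and genotype cannot be told apart in these counts, for the reason given in the next comparison.

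The heterozygous library against wild type had 6 gained of 33 regions (18.2%, 8.61 to 34.4%), against 18.7% of all, and had lost 14 of 41 (34.1%, 21.6 to 49.5%), against 40.2% of all. Snap25 and Syt7 had more gained than lost regions, with 2 and 4 gains. Stx1a, Sytl4, Pclo, Unc13a and Syt13 had more lost, led by Syt13 with 4 and Unc13a with 3. Syt4, Rab3a and Vamp2 had no gained or lost region. With lists of equal length 9 were gained and 10 lost, the net of Pclo turned to 1, and the nets of Syt13 and Unc13a were -1 each, against -4 and -3 among all peaks, so that neither then led Sytl4 with -2. Where a loss needed no peak within 1 kb, 8 of 41 regions were lost (all regions: 33.6%). Gained regions were 3 of 25 within 10 kb (all regions: 16.6%) and 2 of 21 over regions that overlap the gene (all regions: 16.0%). At −log10 q of at least 10 the net of Snap25 was -2. The lowest background of the wild-type list, 2.17 reads per position, was 1.25 times that of the heterozygous list, and the homozygous list had nearly the same lowest background as the heterozygous. Depth and genotype therefore cannot be told apart in counts of either knockout against wild type.

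Both knockout libraries were set against the same wild-type list, so their losses share it. Losses common to both were 3 at Unc13a, 3 at Syt13, 3 at Syt7 and 1 each at Stx1a, Sytl4 and Pclo, which are the 12 regions found in wild type alone. That pattern made up 21.8% of the 55 regions and 22.1% of all regions near a gene.

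The homozygous against the heterozygous library, with lowest backgrounds of 1.74 and 1.73 reads per position, had 10 gained of 35 regions (28.6%, 16.3 to 45.1%), against 33.2% of all, and had lost 8 of 33 (24.2%, 12.8 to 41.0%), against 24.5% of all. Net gains in the homozygous library were 2 at Sytl4, 2 at Syt4 and 1 each at Pclo and Syt13. Net losses were 2 at Snap25 and 2 at Syt7. At −log10 q of at least 10, 3 of 22 were lost (all regions: 20.5%). Where a loss needed no peak within 1 kb, 5 of 33 were lost (all regions: 19.7%). Over regions that overlap the gene 5 of 21 were lost (all regions: 21.4%). The net of Snap25 was 2 at −log10 q of at least 10, and that of Syt13 was -1 with peaks of at least 250 bp. Stx1a, Unc13a, Rab3a and Vamp2 had the same regions in both knockouts.

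**Figure D3:**
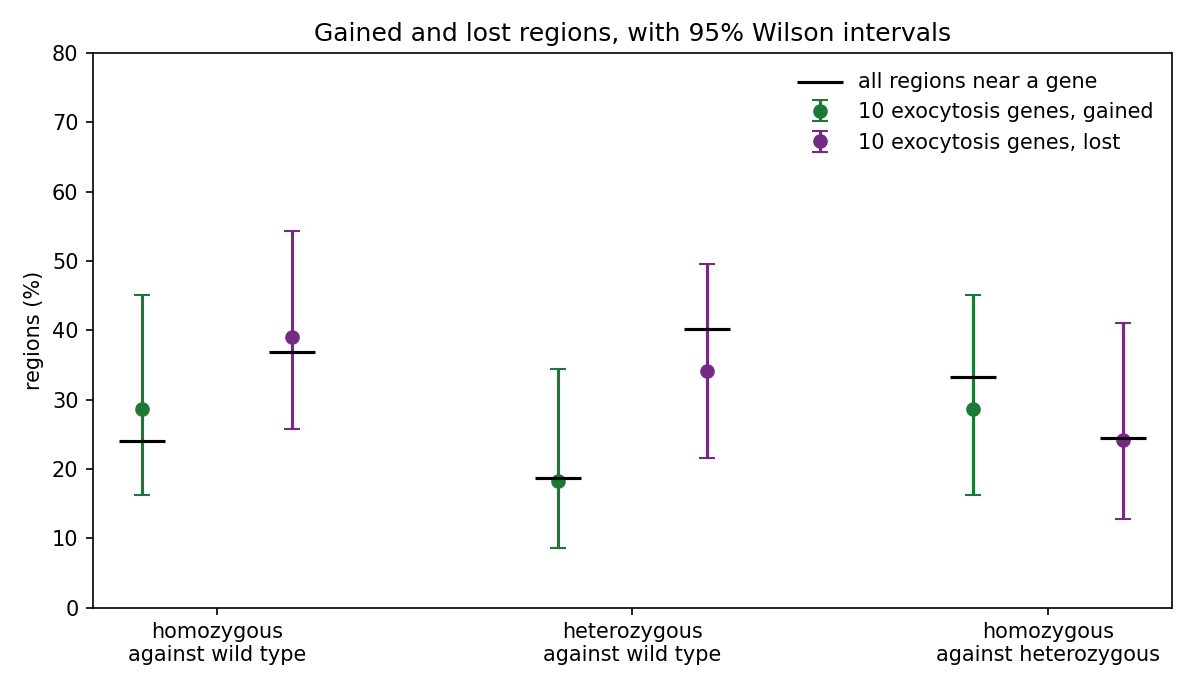
Percentage of regions gained (green) or lost (purple) at the 10 genes in each comparison, with 95% Wilson intervals, and the same percentage over all regions near a gene (black bars). Each black bar lies inside the interval beside it.

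Regions present in 1 library alone held peaks that ranked lower, by the median, than those of constant regions in the same list. The 8 homozygous-only peaks had a median percentile of 23.5 by −log10 q, against 57.2 for the 25 peaks in constant regions of that library. The 4 heterozygous-only peaks stood at 15.1 against 48.2, and the 12 wild-type-only peaks at 37.6 against 50.8. Over all peaks near genes the same medians were 20.4 and 68.8, 20.7 and 64.3, and 24.2 and 74.2. The wild-type-only peaks of the exocytosis genes had a median summit of 52 reads, against 28 over all wild-type-only peaks, and a median width of 342 bp against 346 bp. Their percentiles ran from 4.61 to 48.7, so that none stood above the middle of its list.

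**Figure D4:**
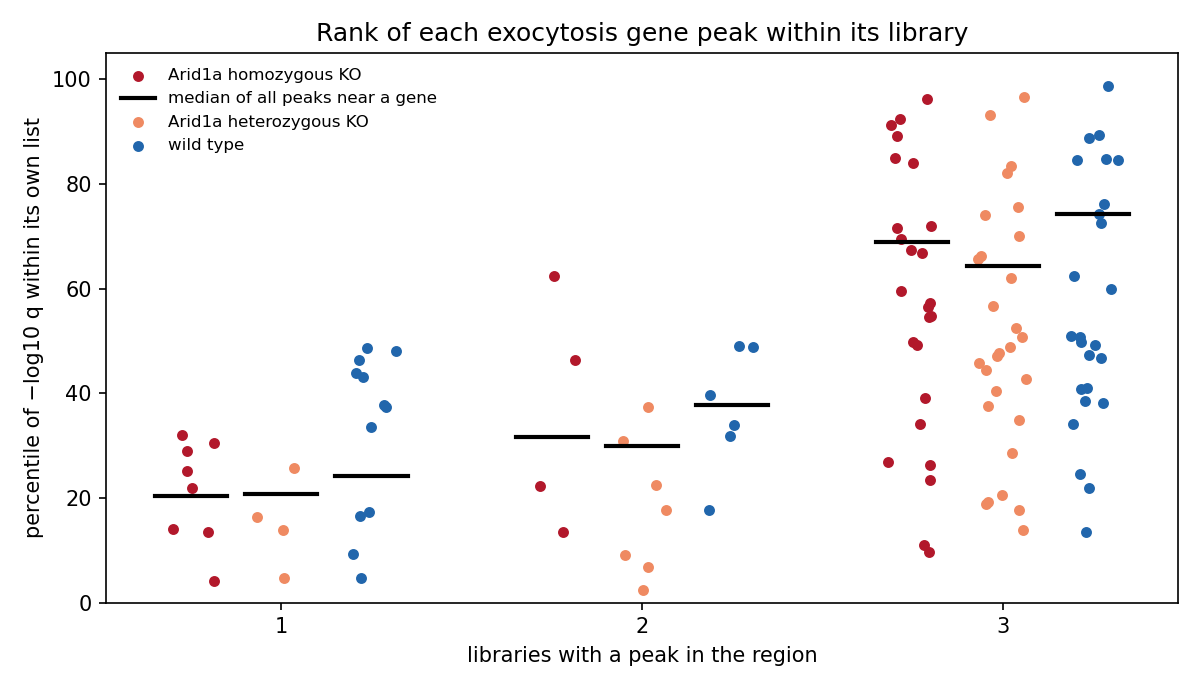
Percentile of each peak at the 10 genes by −log10 q within its own list, against the number of libraries that had a peak in the region; black lines are medians over all peaks near a gene. Peaks of constant regions reach percentile 98.6, and no peak of a region in 1 library exceeds 48.7.

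Widths in regions shared by a pair of libraries were set beside those of the genome. In 25 regions with a homozygous and a wild-type peak, 12 were wider and 13 narrower in the homozygous library, with a median log2 width ratio of -0.04 against -0.07 over 22332 regions. This median was 0.02 with lists of equal length, at −log10 q of at least 10 and over regions with 1 peak in each list. In 27 regions shared by the heterozygous and wild-type libraries, 10 were wider and 17 narrower in the heterozygous library, with a median of -0.08 against -0.19 over 21149 regions. Between homozygous and heterozygous, 16 of 25 regions were wider in the homozygous library, 8 narrower and 1 equal, with a median of 0.07 against 0.10. The ratios at single regions ran from -1.82, at the Pclo region farthest inside the gene in the heterozygous against the wild-type library, to 1.26 at Syt13, in the same comparison.

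**Figure D5:**
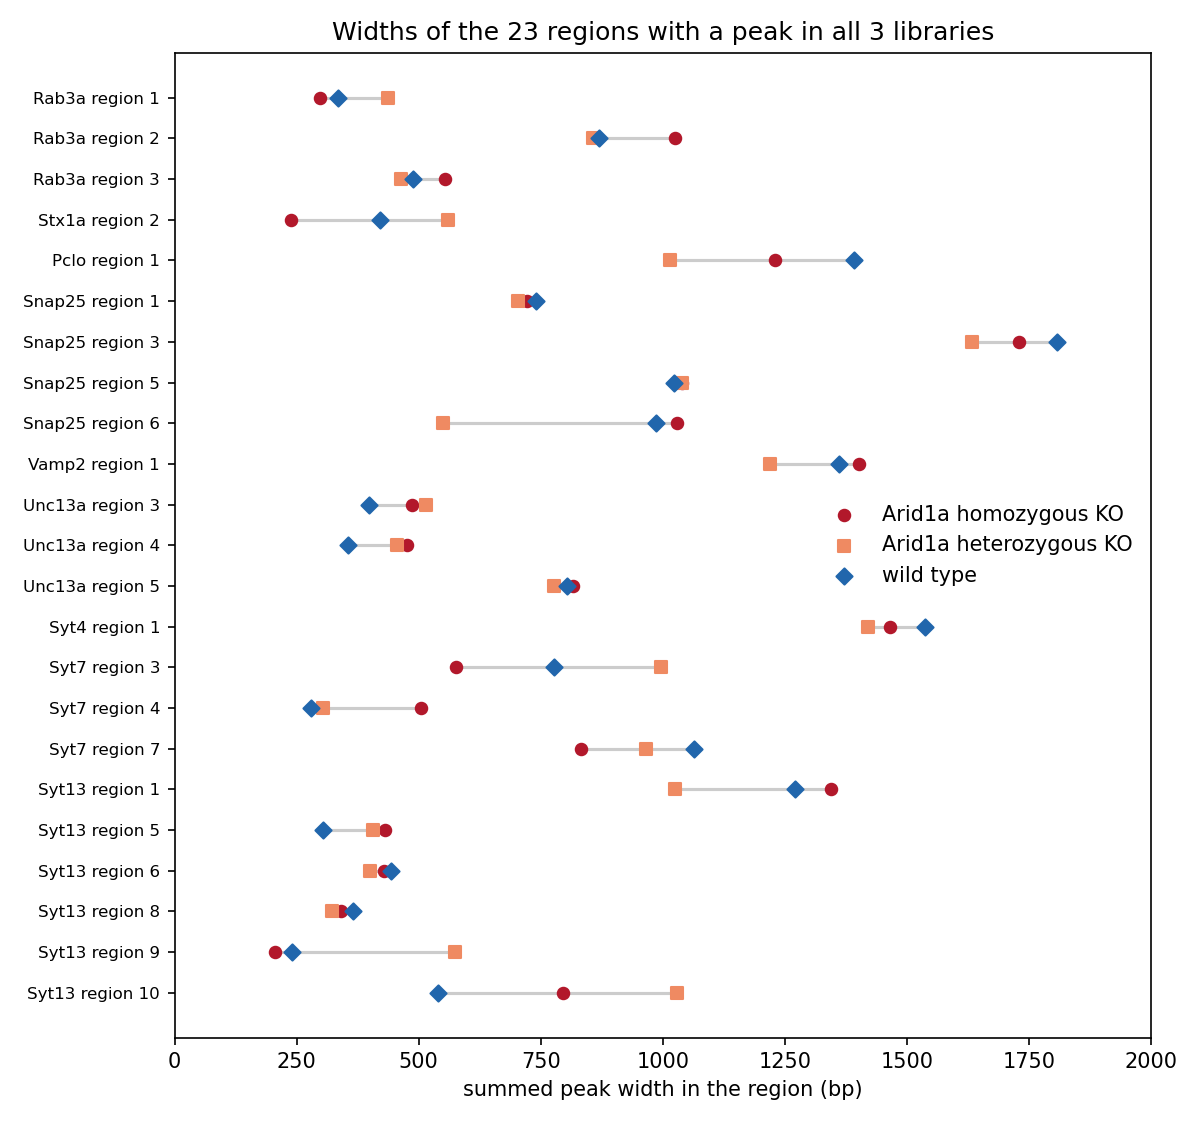
Summed peak width in bp of each of the 23 regions with a peak in all 3 libraries, numbered by position within each gene, for the homozygous (circles), heterozygous (squares) and wild-type (diamonds) library. Region 5 of Snap25, before the gene, differs little between libraries, while region 9 of Syt13 runs from 205 to 574 bp.

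A list of 83 other genes of the exocytosis machinery, among them further Rab, syntaxin, synaptotagmin, complexin and exocyst genes, had 394 regions. Of these genes 74 had a region in at least 1 library and 61 (73.5%) had one in every library. A peak in all 3 libraries was found in 97 of their regions (24.6%, 20.6 to 29.1%), against 39.7% of all regions near a gene. Over all regions this share was 73.9% within 1 kb of a gene end and 22.3% farther away. The regions of the 83 genes were not split in this way. Whether their positions account for this share, or for the gained and lost shares below, was not tested. The intervals of these shares, too, treat regions of the same gene as independent. The homozygous library had gained 79 of 208 regions (38.0%, 31.7 to 44.7%) against wild type, where 24.1% of all regions were gained, and lost 147 of 276 (53.3%, 47.4 to 59.1%), where 36.9% of all were lost. The heterozygous library had gained 56 of 192 (29.2%, 18.7% of all) and lost 140 of 276 (50.7%, 40.2% of all). Homozygous against heterozygous, 94 of 208 were gained (45.2%, 33.2% of all) and 78 of 192 lost (40.6%, 24.5% of all). With lists of equal length the balance of that comparison turned, with 71 gained and 82 lost, and the losses against wild type were 94 in the homozygous and 80 in the heterozygous library. Over all regions near a gene 29.5% were then gained and 26.7% lost in that comparison. Losses of all regions against wild type were then 28.0% in the homozygous and 28.7% in the heterozygous library. At −log10 q of at least 10 the gains against wild type were 49 in the homozygous and 26 in the heterozygous library, and 40 regions were lost, homozygous against heterozygous. Over all regions the shares for these were 21.7%, 15.9% and 20.5%. Shares of the 83 genes themselves under these alternatives are not given here.

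Among these genes the highest net counts in the homozygous library against wild type were those of Sv2c, a synaptic vesicle protein, with 17 and 7 regions, of the exocyst gene Exoc6, with 5 and 1, and of Rims2, which encodes an active zone protein that binds Rab3, with 10 and 6. The lowest were those of the complexin gene Cplx2, with 3 and 13, the calcium sensor gene Syt9, with 0 and 8, and Rab3c, with 0 and 6. In the heterozygous library against wild type the highest were Rph3a, a Rab3 effector, with 10 and 2, Exoc6, with 8 and 1, and Rab3b, with 6 and 4. The lowest were Exoc4, with 3 and 12, the calcium sensor gene Syt1, with 1 and 8, and Exoc6b, with 5 and 11.

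Homozygous against heterozygous, the highest net counts were those of Exoc4, with 15 and 3 regions, Sv2c, with 17 and 6, and the active zone gene Erc2, with 8 and 2. The lowest were those of Syt9, with 0 and 7, Rph3a, with 4 and 10, and Syt2, with 5 and 11. Over the 83 genes, 16 had more gained than lost regions and 35 more lost in the homozygous library against wild type, and 8 and 43 in the heterozygous library. Of the 10 genes described above, 1 and 4 did so in the homozygous and 2 and 5 in the heterozygous library.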

How the data were processed

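H3K27ac ChIP-seq peaks of 3 MIN6 clones, with 1 library per genotype, were analysed. The authors deposited 1 peak list per library. Reads were demultiplexed with bcl2fastq and peaks called with MACS2 on mm10, per the submitters' processing notes; versions, aligner, control and threshold were not given in the sources used here. Each deposited peak has a score (equal to the whole part of 10 times its −log10 q in 107149 of 107153 peaks), a fold enrichment ratio, −log10 p, −log10 q and a summit position. Percentiles of −log10 q were taken only within a list. Folds were also set side by side between libraries, and the stricter thresholds applied the same −log10 q cut to every list. Neither was adjusted for depth. Depth in reads per library is unknown.

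Peaks were merged in Python 3.11.15 with numpy 2.4.6 and pandas 2.3.3, and all 52938 regions were identical to those of bedtools 2.31.1. An overlap of 1 bp with a peak made a region present in a list. Each peak taken alone went to the same genes as its region. Pile-up and background were solved with scipy 1.17.1 from the fold, taken as (pile-up + 1)/(background + 1), and the p of a Poisson upper tail, within 0.001 of the −log10 p, for 34297 of 34298 homozygous, 31363 of 31365 heterozygous and 41489 of 41490 wild-type peaks. Merging and solving were tested on simulated data. The simulated backgrounds were all below the median backgrounds of the exocytosis peaks, so solving was not tested at such values. Genes came from a RefSeq table of GRCm38.p6 without strand, in which every symbol was found; promoter windows of the same build gave strand and start for Rab3a, Stx1a, Sytl4, Pclo and Unc13a. All windows that overlap on opposite strands (1802 pairs) matched as reverse complements. Figures used matplotlib 3.10.9.

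The genes and lists were chosen with earlier results of these data known. Of the 83 other genes, the 3 with the highest and the 3 with the lowest net count per comparison were named, ties by symbol. Other genes singled out were chosen after seeing their values. The alternatives tried were lists of equal length, stricter thresholds, other overlap and distance rules, and a minimum width.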

Additional observations from a re-analysis of the deposited data

Results flagged for a closer look

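Of the genes named, 5 had net counts of regions against wild type that went opposite ways in the 2 knockout libraries. All of these but Syt7 had been named because a net count between these same libraries was among the highest or lowest. Their number is therefore not a result about exocytosis genes, and the share over all genes is not given here. With 1 library per genotype the difference was not tested, and both counts share the wild-type list. Syt7 had a net of -1 region in the homozygous and 1 in the heterozygous library. Sv2c had a net of 10 in the homozygous and -1 in the heterozygous library, Rims2 4 and -2, Erc2 3 and -3, and Exoc4 3 and -9.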

How the results depend on the processing

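Of the recomputed counts and median widths of both gene lists, 95 stayed within 1.5 times, or within 0.1 for the log2 widths, 16 counts moved by over 1.5 times and 3 medians changed sign. The 95 include all results with the thinned wild type described below, which could hardly change. Of the recomputed net counts, for the 10 genes singly and together, 213 stayed the same, 77 moved and 7 changed sign. With lists of equal length, cut to 31365 peaks, the lost regions of the 83 other genes were 94 in the homozygous and 80 in the heterozygous library against wild type. The net of Pclo, heterozygous against wild type, was then 1, and the median log2 width ratio, homozygous against wild type, 0.023. At −log10 q of at least 5 no count moved by over 1.5 times. At −log10 q of at least 10 the 10 genes had gained 6 of 29 regions, homozygous against wild type (all regions: 21.7%). They had lost 3 of 22, homozygous against heterozygous (all regions: 20.5%). The 83 genes then had 49 gained regions in the homozygous and 26 in the heterozygous library against wild type, and 40 lost, homozygous against heterozygous. The net of Snap25 was -2, heterozygous against wild type, and 2, homozygous against heterozygous, that of Syt7, heterozygous against wild type, -2, and the width ratio 0.023.

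When a region counted as absent only with no peak within 1 kb, 8 of 41 were lost in the heterozygous library against wild type (all regions: 33.6%). In the homozygous against the heterozygous 5 of 33 were lost (all regions: 19.7%). Within 10 kb, 5 of 26 were gained in the homozygous library against wild type (all regions: 22.2%) and 3 of 25 in the heterozygous (all regions: 16.6%). The net of Syt7 in the heterozygous library was then -1. Over regions that overlap the gene 23 homozygous and 21 heterozygous regions were left. Of these, 5 and 2 were gained against wild type (all regions: 21.9% and 16.0%). The net of Syt7 in the heterozygous library was then -2. Homozygous against heterozygous, 5 of the 21 were lost (all regions: 21.4%). With peaks of at least 250 bp the net of Syt13, homozygous against heterozygous, was -1. The width ratio over regions with 1 peak in each list was 0.023, homozygous against wild type. A minimum overlap of 50% of the shorter peak left all counts of the 10 genes as they were. So did wild type thinned to the heterozygous background, an alternative chosen after seeing the data. That thinning kept 41349 of 41490 wild-type peaks, so it could hardly change a count and does not show what depth does. For these changes the cause was not tested beyond what each alternative removes. No paired analysis was possible because each genotype had 1 library. Leaving out a replicate was not possible for the same reason. Depth is known only through the lowest background of each list.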
